A study of Mus musculus with 2 samples.

Results

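The FACS CFU-E pool is the set of mouse fetal liver cells that the deposited cell table assigns to the antibody hash of that name, and 161 of its 167 cells are described here. The other 6 cells were left out because the 4 adult globin genes Hba-a1, Hba-a2, Hbb-bs and Hbb-bt summed to 20 or more per 10000 unique molecular identifiers (UMIs, tags that count single transcript molecules) of the cell. The series holds 3357 cells in all. The 5 members nearest the limit held 16.3, 16.3, 17.5, 18.2 and 18.3 globin UMIs per 10000. The 6 cells outside it held 24.5, 24.6, 26.8, 27.9, 40.6 and 69.8. Globin levels, and the 6 marker genes by which the pool was described beforehand, are the measured values that the members were chosen by or described with, so they are given as a description.

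The cells came from C57BL/6 fetal livers at E14.5, from liver cells that the labels call low in CD71 and CD24. The pools FACS CFU-E (161 members), PE-high (236 cells under the same globin limit) and FACS BFU-E (233 cells) were tagged with different hash antibodies and sequenced in 1 library with a 10x 3' version 3 kit. CS CFUE (183 cells under the limit) lay in a second library, whose cells carried barcoded antibodies against CD117 and CD71. FACS is fluorescence-activated cell sorting. The sources used here give neither the gates nor the number of embryos nor what PE and CS stand for. Growth with dexamethasone or methanol is also described in the labels, without saying whether the sequenced cells went through it. Each pool is 1 sample, its cells share that sample, and no test was made between pools or between groups of cells. Intervals below are 95% intervals that cover counting error only.

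The colony-forming unit-erythroid, or CFU-E, depends on erythropoietin, divides fast and is the last colony-forming red cell progenitor before the cell becomes an erythroblast. The burst-forming unit-erythroid, or BFU-E, precedes it and depends more on stem cell factor, the ligand of Kit. In fetal liver, cells on this path take up iron through the transferrin receptor, switch on heme synthesis and the proteins of the red cell membrane, and lose the transcripts of immature progenitors, before globin fills the cell.

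The sequences that define the pool and flank its markers are shown first, because the hash sets membership and the promoters belong to 2 of the marker genes described next. The hash oligo is given in the labels, and it has 15 bases.
FACS CFU-E hash: gtccgactaatagct
RefSeq promoters (build GRCm38.p6, 250 bases before to 50 bases after a start site) were found for 4 of the 6 marker genes, in 5 windows. These were Tfrc, Rhd, Rgcc and Epor. Of the 4 genes, 2 held the letters AGATAA or, on the other strand, TTATCT, the letters that erythroid GATA factors are known to read. The Rhd window is chr4:134864286-134864585 on the plus strand and the Epor window chr9:21963527-21963826 on the minus strand. Capitals mark the AGATAA or TTATCT letters, which begin 43 bases before the start in Rhd and 54 bases before it in Epor.
Rhd promoter: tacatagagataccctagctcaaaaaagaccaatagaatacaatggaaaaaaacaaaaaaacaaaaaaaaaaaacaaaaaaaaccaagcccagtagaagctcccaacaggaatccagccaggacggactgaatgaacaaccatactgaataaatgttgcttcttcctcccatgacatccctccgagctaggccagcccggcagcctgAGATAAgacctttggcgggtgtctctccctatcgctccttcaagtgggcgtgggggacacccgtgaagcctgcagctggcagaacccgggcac
Epor promoter: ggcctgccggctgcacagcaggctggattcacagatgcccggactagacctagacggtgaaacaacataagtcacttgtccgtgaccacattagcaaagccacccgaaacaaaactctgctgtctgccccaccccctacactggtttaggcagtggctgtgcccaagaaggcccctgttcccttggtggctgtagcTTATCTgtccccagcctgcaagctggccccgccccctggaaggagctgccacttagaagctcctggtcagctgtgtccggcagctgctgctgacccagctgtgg
Of 32544 promoter windows of the same length, 11.2% held AGATAA on either strand. The letters CCNCNCCC, on either strand, were in windows of all 4 marker genes and in 49.7% of the 32544 windows. A match is a description of the letters and not of binding.

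The members held 6013157 UMIs, between 14067 and 49967 per cell with a median of 38335, and between 3050 and 6470 detected genes with a median of 5621. No cell barcode was shared between the libraries. Markers of other blood and liver cells were near 0: the 12 granulocyte genes in the table summed to 50 UMIs over all members (at most 2 in a cell, 7 genes at 0) and the 15 monocyte and macrophage genes to 26 UMIs. The 11 megakaryocyte genes summed to 146 UMIs, 44 of them of F2r, and the 11 hepatocyte genes to 25. Endothelial and stem cell lists summed to 791 and 843 UMIs, of which the single genes Egfl7 and Mllt3 held 790 and 731.

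One member stood apart by its lymphoid transcripts. It held 18786 UMIs, 60 of them from the lymphoid list, while none of the other 160 members held more than 1. Its transcripts included 20 UMIs of Cd79b and 21 of Ebf1, a receptor chain and a transcription factor of B cells, and 30 of Igll1 and 23 of Vpreb1, which form the surrogate light chain of precursor B cells. Cldn13, Epor and adult globin were at 0 in it, and it held 18 UMIs of Cd24a, which B cell precursors also express. On the authors' deposited first principal component, a score, it lay at 24.1, against -10.2 to -3.28 in the other members. Of the 6 marker levels described next, in CPM (UMIs scaled to one common total for every pool), Cd24a moved most when this cell was left out, to 367 CPM without it, against 369 with it. It was too shallow to enter the results below that use 20000 UMIs per cell. The members with 20333 and 22488 UMIs, which do enter them, held 18 and 5 mitochondrial UMIs per 20000, against a median of 742. At that depth they held 3768 and 3645 genes (median 4383) and 5102 and 5134 UMIs of ribosomal protein genes (median 4119). Both were late-end cells by the stage index below and held 0 UMIs of the sex-linked genes described below. Their part in the results was not tested.

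The 6 marker transcripts were found in nearly every member. Among cells under the globin limit, their pooled level in FACS CFU-E was higher than in the other 3 pools. That limit cut the pools unequally: it took out 58 of 294 PE-high, 12 of 195 CS CFUE and 6 of 167 FACS CFU-E cells. The excluded FACS CFU-E cells held more Rhd, Rgcc, Cd24a and Epor than members (Cd24a 534 CPM against 369). The marker order against PE-high with all cells kept is not given here. All 6 markers lay past 1.5-fold against FACS BFU-E, 0 against PE-high and 2 (Rgcc and Rhd) against CS CFUE. Of all genes compared, 18.6, 0.973 and 11.4% did. With the scaling that sets the median ratio of all genes to 0, 0 lay past it against CS CFUE, and Tfrc had a log2 ratio of 0.01, against 0.25 before. They code for proteins of iron uptake, the cell surface and erythropoietin signalling. Tfrc (chromosome 16, 32608896 to 32632794, GRCm38.p6), the transferrin receptor CD71, stood at 325 CPM (311 to 340) in FACS CFU-E, against 285 in PE-high, 274 in CS CFUE and 82.0 in FACS BFU-E. Per cell it ranged up to 7.74 UMIs per 10000 with a median of 3.04, and 97.5% of members held a UMI, against 73.8% of FACS BFU-E cells, whose median depth was 31594 UMIs. Cd24a (chromosome 10, 43579169 to 43584265), the anchor protein CD24, stood at 369 CPM (353 to 384) in FACS CFU-E, 307 in PE-high, 283 in CS CFUE and 47.3 in FACS BFU-E. Both are the antigens that the labels call low in the cells, and their transcripts were present in 97.5 and 100% of members.

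Rhd (chromosome 4, 134864536 to 134896172), which carries the Rh antigen, stood at 361 CPM (346 to 377) in FACS CFU-E, 266 in PE-high, 234 in CS CFUE and 41.1 in FACS BFU-E. Cldn13 (chromosome 5, 134914250 to 134915530), a claudin of mouse erythroid cells, stood at 208 CPM (197 to 220) in FACS CFU-E, 151 in PE-high, 161 in CS CFUE and 10.8 in FACS BFU-E. The pools overlapped per cell for both genes, and the FACS BFU-E median was 0 for each. Rgcc (chromosome 14, 79288750 to 79301635), a regulator of the cell cycle, stood at 529 CPM (510 to 547) in FACS CFU-E, 390 in PE-high, 347 in CS CFUE and 36.2 in FACS BFU-E. Epor (chromosome 9, 21958897 to 21963576), the erythropoietin receptor, stood at 187 CPM (177 to 199) in FACS CFU-E, 151 in PE-high, 143 in CS CFUE and 65.4 in FACS BFU-E. PE-high and CS CFUE were neighbours in each of these orders, and for Tfrc, Epor and Cldn13 their intervals overlapped.

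**Figure D1:**
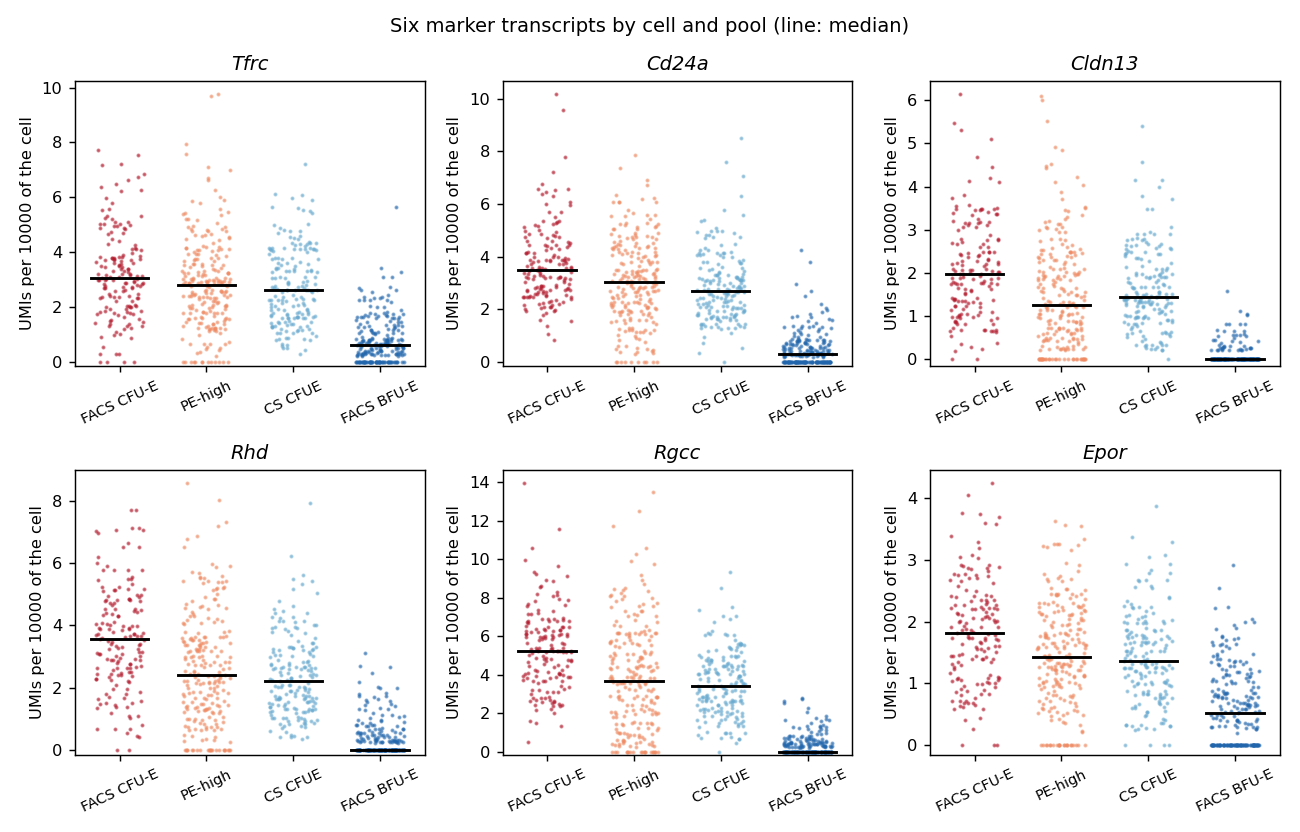
UMIs per 10000 of each cell (y axis) for the 6 marker genes in FACS CFU-E, PE-high, CS CFUE and FACS BFU-E (x axis); points are cells under the globin limit and lines are medians. The FACS CFU-E median lies above the other medians in each panel (Rgcc 5.23, against 3.66 in PE-high, 3.43 in CS CFUE and 0 in FACS BFU-E), and the cells of the pools overlap.

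Among members every marker but Epor varied more beyond counting error than the median gene, and the markers were loosely tied to each other. At 20000 UMIs per cell, which 155 members reached and 6 did not, Tfrc ran from 0 to 18 UMIs (median 6) and Rgcc from 1 to 29 (median 10). The excess squared coefficient of variation, the variance above counting error divided by the squared mean, was 0.154 for Tfrc, 0.131 for Cldn13, 0.120 for Rhd, 0.0972 for Cd24a, 0.0953 for Rgcc and 0.0309 for Epor. The median over 4854 genes was 0.0401. Spearman correlations between markers over the 155 cells, which share 1 library and 1 depth, ran from -0.04 (Tfrc with Rhd) to 0.33 (Cldn13 with Rgcc). Over the 4854 genes, the closest to Rhd was Tmem14c, a mitochondrial porphyrin transporter (correlation 0.39; 0.61 in PE-high and 0.39 in CS CFUE), followed by Car2. The closest to Cldn13 was Fth1, the ferritin heavy chain (0.39; 0.65 in PE-high and 0.30 in CS CFUE). For Cd24a it was Hbb-bt (0.33), for Tfrc the nuclear export receptor Xpo1 (0.33; 0.11 in PE-high and 0.09 in CS CFUE) and for Epor Rnf187 (0.36; -0.04 in PE-high and -0.01 in CS CFUE). In sparse counts these are descriptions of likeness.

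Stage within the pool was read from a per-cell index, the log2 ratio of UMIs from 22 genes of late erythroid progenitors and erythroblasts to UMIs from 16 genes of early progenitors, with 1 added to each, at 20000 UMIs per cell. The index ran from 0.68 to 4.75 with a median of 2.55. The late list gave between 39 and 127 UMIs per cell (median 78) and the early list between 3 and 28 (median 13). The 155 cells were split by it into 51 early-end, 53 mid-range and 51 late-end cells. The index formed a range and not separate groups: 38 and 32 cells lay within 0.25 of the 2 boundaries. The index rose with the deposited second principal component (Spearman correlation 0.74) and ran against the first (-0.68). Its rank correlation with the UMIs of the cell was -0.01. Globin, on which the selection was made, had a rank correlation of 0.60 with it.

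The comparison of late-end with early-end cells read which other transcripts moved with the stage index. Of 3380 genes with at least 50 CPM and a UMI in 10% of cells of either group, 236 (6.98%) lay past 1.5-fold, 75 of them (2.22% of the 3380) higher in late-end cells and 161 (4.76%) lower. Genes of both lists and the globins were left out of this count. A gene under 50 CPM in one group could enter only through the other, which fixed its direction. The 1.5-fold limit is a size and not a test. Most of the 236 calls depended on the random thinning of UMIs, from which the stage index was also read. With a second thinning 183 genes lay past the limit, only 78 of them among the 236. With all UMIs of the same cells 123 did, 94 of them among the 236. The 236 are therefore not a fixed set. Ranges given below after a log2 ratio are therefore its lowest and highest over 6 alternative settings.

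Part of the heme genes were higher in late-end cells. Of 11 genes of the heme list (synthesis, transport and breakdown) outside the late list, 4 were higher past 1.5-fold in late-end cells and 0 lower. Their median log2 ratio was 0.51, against -0.05 over all 3380 genes. Uros, which closes the porphyrin ring, stood at 41.2 CPM (29.7 to 55.7) in early-end, 49.1 in mid-range and 80.4 in late-end cells (63.9 to 99.8). Its log2 ratio was 0.97, and 0.31 to 0.94 over the alternatives. Urod, the next enzyme of the path, had a log2 ratio of 0.68 (0.34 to 0.59) and Slc25a38, the mitochondrial glycine carrier, 0.79 (0.34 to 0.84). Ppox, which acts late in the path, had 0.62 (0.30 to 0.92). Alad, and Blvrb of heme breakdown, lay just under the limit at 0.50 and 0.51. None of 12 iron handling genes lay past it, with Fth1 at 0.39 and Ftl1 at 0.37, and the list median was 0.19.

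Of the 6 markers, 3 were higher past 1.5-fold in late-end cells: Rhd at 435 CPM in late-end cells against 256 in early-end cells (log2 0.77; 0.48 to 0.88 over the alternatives), Rgcc at 676 in late-end cells against 429 in early-end cells (0.65; 0.52 to 0.87) and Cldn13 at 266 in late-end cells against 175 in early-end cells (0.60; 0.16 to 1.01). Cd24a had a log2 ratio of 0.39 (0.18 to 0.55), Epor of 0.41 (0.22 to 0.48) and Tfrc of 0.06 (-0.14 to 0.27). The markers thus did not move by one size, and Tfrc stood at 311 CPM in early-end, 350.0 in mid-range and 324 in late-end cells. The 6 excluded cells held 579 CPM of Rhd (483 to 689) and 762 of Rgcc (651 to 887), against 361 and 529 in members, and 328 of Tfrc, against 325 in members.

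**Figure D2:**
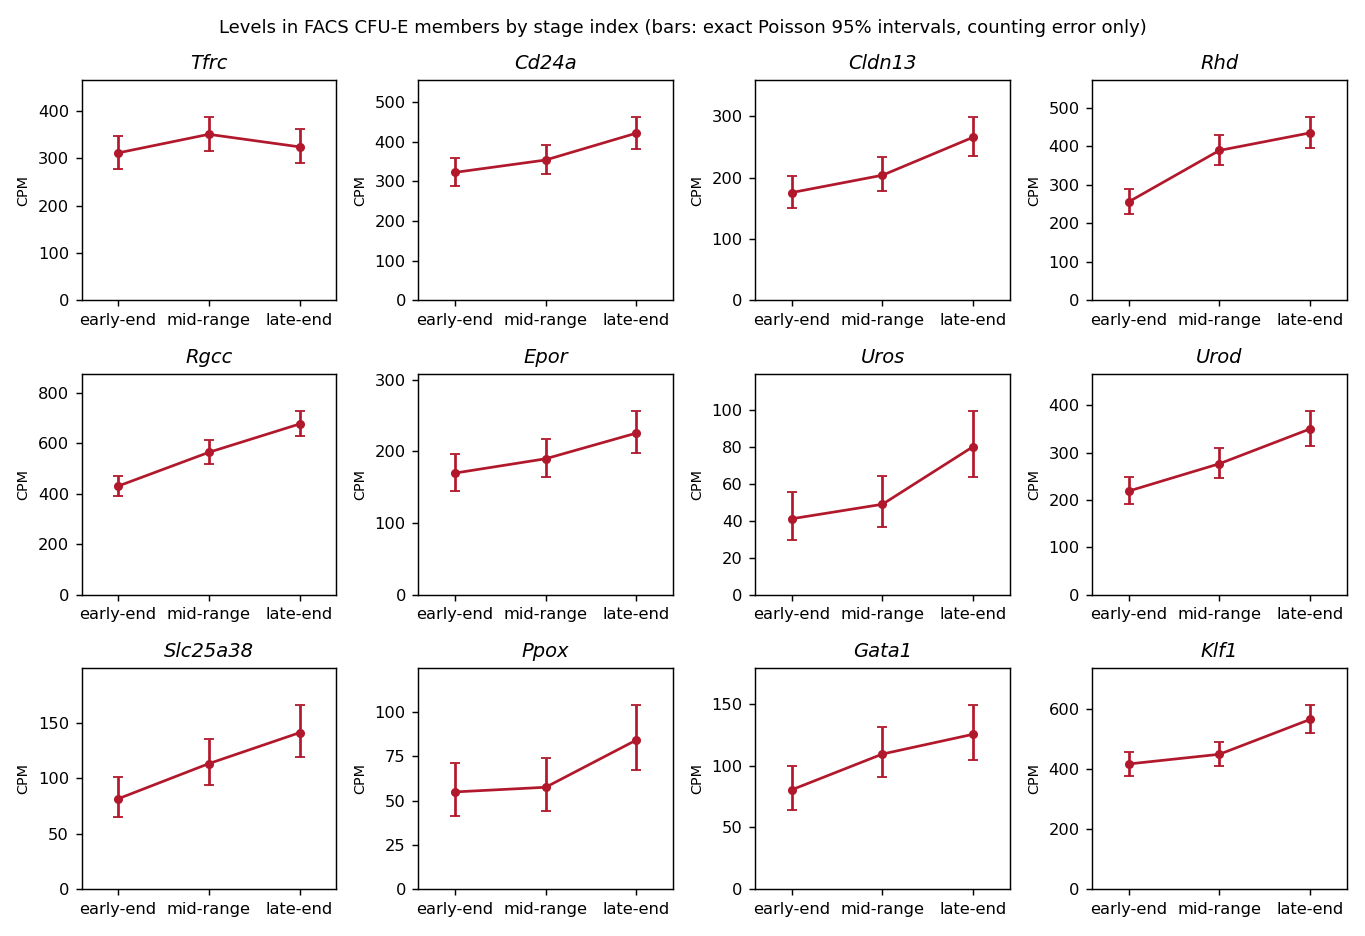
Level in CPM (y axes, from 0) of the 6 markers, 4 heme genes and 2 erythroid transcription factors in early-end, mid-range and late-end cells by stage index (x axes) among 155 FACS CFU-E members; points are summed levels and bars exact Poisson intervals. Rhd lies at 256 CPM in early-end and 435 in late-end cells, while Tfrc stays between 311 and 350.0.

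The 10 genes with the highest ratio were Stard10, Acp5, Mrap, Agpat4, Mgst3, Tmem179b, Grina, Ift140, Btrc and Smim8. Acp5, the tartrate-resistant acid phosphatase, stood at 113 CPM in late-end and 44.1 in early-end cells, a log2 ratio of 1.35 (0.78 to 1.69 over the alternatives). Stard10, a lipid transfer protein, had 1.46 (1.02 to 1.55), Mgst3, a microsomal glutathione transferase, 1.16 (0.94 to 1.21), and Mrap, the accessory protein of the corticotropin receptor, 1.27 (0.24 to 1.48). Agpat4, an acyltransferase of lipid synthesis, had 1.16 (0.27 to 0.98) and lay past the limit in 4 of the 6 alternatives. The 10 with the lowest were Ifngr1, Cbfa2t3, Arhgdib, Syngr2, Glyr1, Elovl6, Ice1, Frat2, Dnajc25 and Hp1bp3. Ifngr1, a chain of the interferon gamma receptor, stood at 20.6 CPM in late-end and 71.6 in early-end cells, a log2 ratio of -1.80 (-2.16 to -1.29). Cbfa2t3 codes for a corepressor that works with Tal1 and Gata1 in erythroid progenitors, and it stood at 33.3 CPM in late-end and 94.1 in early-end cells, 2.82-fold lower, and its log2 ratio was -1.20 to -0.50 over the alternatives. Arhgdib, a GDP dissociation inhibitor of blood cells, had -1.42 (-1.47 to -0.70), and Syngr2 -1.36 (-1.77 to -0.66). All 20 kept their sign in the 6 alternatives, but only 9 lay past the limit in all of them, and Ice1, at -1.09 (-1.21 to -0.17), did so in 2.

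Among 14 erythroid transcription factors, Gata1 was higher past 1.5-fold and Cbfa2t3 lower. The Gata1 ratio did not pass the limit in any of the 6 alternatives (log2 0.64; 0.13 to 0.52), and Klf1, a factor of erythroid genes, had 0.44 (0.26 to 0.42). Pkm, the pyruvate kinase of most cells, was the 1 of 11 glycolysis genes past the limit, at 117 CPM in late-end and 186 in early-end cells (log2 -0.68; -1.11 to -0.36). Of 25 cell cycle genes that took no part in the phase scores, 0 lay past it, and so did 0 of 10 ATF4 stress genes, 0 of 7 apoptosis genes and 0 of 4 erythropoietin signalling genes. Of the scored lists, 7 of 40 G2/M genes were higher (among them Aurkb, log2 0.90, 0.26 to 0.82 over the alternatives, and Kif23, 0.85, 0.49 to 1.07) and 4 of 38 S phase genes lower (among them Dtl, -0.81, -0.80 to -0.49).

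The same split was made in 2 other pools, whose cells were not used to call the genes. Of the 75 genes higher in late-end cells of FACS CFU-E, 57 (76.0%) lay above 0 in PE-high and 54 (72.0%) in CS CFUE, against 46.7 and 40.9% of all 3380 genes. Of the 161 lower genes, 132 (82.0%) lay at or below 0 in PE-high and 144 (89.4%) in CS CFUE, against 53.3 and 59.1% of all. The genes had been called by their size in FACS CFU-E. The median log2 ratios were smaller in the other pools, at 0.44 in PE-high and 0.24 in CS CFUE, against 0.70 in FACS CFU-E, for the higher genes, and -0.31 and -0.30, against -0.73, for the lower ones. Single genes had larger ratios there than in FACS CFU-E, among them Acp5. Acp5 (2.78 in PE-high and 1.87 in CS CFUE), Uros (1.78 and 1.17) and Rhd (1.74 and 0.96) were higher in late-end cells of both pools, and Ifngr1 (-1.13 and -1.40), Cbfa2t3 (-1.68 and -0.83) and Syngr2 (-1.57 and -1.30) lower. Gata1 was at 0.16 and -0.05 there, and Kif23 at -0.47 and 0.22. PE-high also held 21 cells with 5 or more UMIs of myeloid or lymphoid lists, and their part in its values was not tested.

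**Figure D3:**
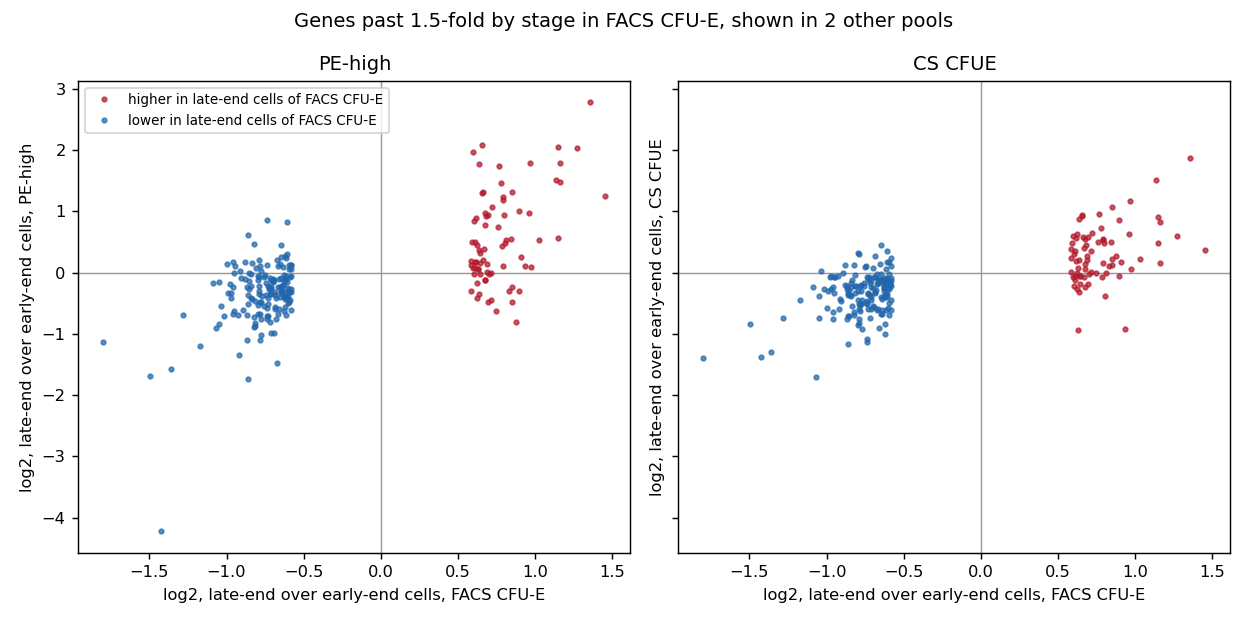
Log2 ratio of late-end over early-end cells by stage index, for FACS CFU-E (x axes) and for PE-high and CS CFUE (y axes) for the 236 genes past 1.5-fold in FACS CFU-E; points are genes. Of the higher genes 57 of 75 lie above 0 in PE-high and 54 of 75 in CS CFUE, with smaller median ratios than in FACS CFU-E (0.44 in PE-high and 0.24 in CS CFUE, against 0.70).

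Adult globin, on which the selection was made, was already uneven below its limit. At 20000 UMIs per cell, alpha globin (Hba-a1 and Hba-a2) ran from 0 to 30 UMIs with a median of 2 and was at 0 in 28 of 155 cells. Beta globin (Hbb-bs and Hbb-bt) ran from 0 to 33 with a median of 2 and was at 0 in 34 cells. The 10% of cells with most held 34.1% of the alpha and 42.6% of the beta UMIs. Over cells, alpha and beta globin had a rank correlation of 0.45 with each other, and of 0.51 and 0.35 with the stage index. The members of each pair are near-identical copies, so how reads were split between them is uncertain. The 4 embryonic globin genes had 9 UMIs in all members together.

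Cell cycle transcripts were abundant in the pool, with an S phase sum nearest that of PE-high and a G2/M sum nearest that of CS CFUE. The 43 S phase genes summed to 6851 CPM in FACS CFU-E, against 6866 in PE-high, 5352 in CS CFUE and 5900 in FACS BFU-E, and the 54 G2/M genes to 11614, against 10865, 11532 and 9885. At 20000 UMIs, S phase genes gave 81 to 220 UMIs per member and G2/M genes 153 to 379, and the sums ran against each other over cells (rank correlation -0.37). Scanpy's scores called 55 of 155 members S (35.5%, 27.97 to 43.56), 100 G2M (64.5%, 56.44 to 72.03) and 0 G1. A cell is called G1 when both scores lie below 0, and the G2M score was above 0 in all 155 members (lowest 0.0964), so the 0 says nothing of the share of cells in G1. These calls set each list against control genes, and their split moved with the processing: the S share was 31.7% without thinning, 26.7% at 10000 UMIs and 25.8% with a second thinning. The S share was 40.2% in PE-high, 14.8% in CS CFUE and 52.4% in FACS BFU-E at 20000 UMIs. Of the members, 16 S-called and 20 G2M-called cells lay within 0.05 of the line between the calls. Calls of this kind also read free RNA, whose part was not tested, and no rate of cycling follows from them.

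**Figure D4:**
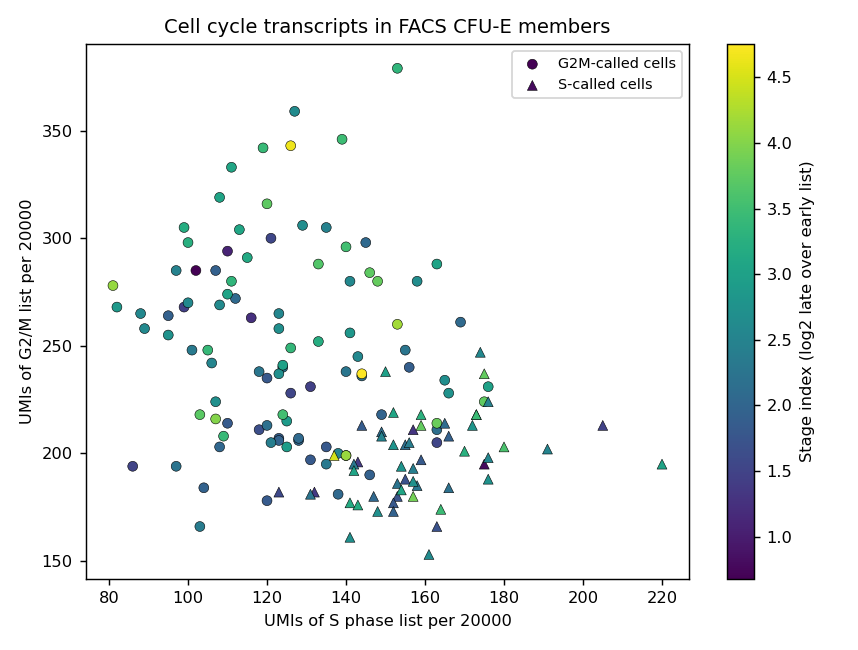
UMIs of the S phase list (x axis) and of the G2/M list (y axis) per 20000 in 155 FACS CFU-E members; circles are G2M-called and triangles S-called cells, and colour gives the stage index. The cells form 1 continuous cloud from high G2/M (up to 379) to high S (up to 220), with high and low stage index in both calls.

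Outside the scored lists, some mitosis genes were higher in G2M-called than in S-called members. Of 3255 genes, 76 (2.33%) lay past 1.5-fold, 50 higher in the 100 G2M-called cells (1.54%) and 26 lower (0.799%). This count is for the first thinning alone, and the phase calls themselves moved with a second. Of 26 cell cycle genes outside the scored lists, 5 were higher and 2 lower, with a median log2 ratio of -0.03. Plk1, the mitotic polo-like kinase, stood at 140 CPM in G2M-called cells and 62.7 in S-called cells (ratio 2.23, 1.71 to 2.95). Prc1, which bundles the microtubules of the dividing cell, stood at 188 in G2M-called cells against 78.2 in S-called cells (2.41, 1.90 to 3.08), Ccnb1, cyclin B1, at 206 in G2M-called cells against 114 in S-called cells, Arl6ip1 at 238 in G2M-called cells against 129 in S-called cells and Ccnf, cyclin F, at 55.5 in G2M-called cells against 36.4 in S-called cells. Ccne1, the cyclin E1 of the start of S phase, was lower, at 193 CPM in G2M-called cells against 314 in S-called ones (ratio 0.615, 0.531 to 0.714), as was Fbxo5 (108 in G2M-called cells against 172 in S-called cells), an inhibitor of the anaphase-promoting complex. Arhgap11a and Aspm were on the higher side beside these, and Lmo4, Fam111a and Rfc3, a subunit of the clamp loader, on the lower side. The 2 groups had close stage medians, 2.585 in G2M-called and 2.503 in S-called cells, with G2M scores and stage at a rank correlation of 0.24. They differed in depth, with a median of 40263 UMIs in G2M-called and 37151 in S-called cells.

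Depth moved with the phase calls, and its groups had close stage medians. The 51 deepest of the 155 cells held 42677 to 49967 UMIs and the 51 shallowest 20088 to 35393. At equal thinned depth, 40 of the 51 deepest cells were called G2M (78.4%, 64.7 to 88.7), against 28 of the 51 shallowest (54.9%, 40.3 to 68.9). Their G2/M lists gave medians of 255 and 213 UMIs, and their stage medians were 2.62 and 2.53. Of 3406 genes, 119 (3.49%) lay past 1.5-fold between them, 69 higher in the deep cells (2.03%) and 50 lower (1.47%). This count is for the first thinning alone, and how far it moves with another is not given here. Of 40 G2/M genes 4 were higher and 0 lower (median log2 ratio 0.28), and of 40 S phase genes 1 was higher and 4 lower (median -0.03). Of 25 unscored cell cycle genes, 2 were higher and 2 lower. The highest ratios were those of Sco2, Pcf11, Gm47283, Crip2 and Gfm1, and the lower side held Bet1, Hipk1, Rce1 and Senp2 among others. Prc1 (193 CPM in deep cells against 104 in shallow cells, ratio 1.86, 1.46 to 2.38) was also among the higher ones. So was the mitotic motor Kif11 (150.0 in deep cells against 80.4 in shallow cells, 1.87, 1.42 to 2.47). E2f8 (25.5 CPM in deep cells against 60.8 in shallow cells, ratio 0.42, 0.25 to 0.67) was among the lower. So was E2f1 (34.3 in deep cells against 63.7 in shallow cells, 0.54, 0.35 to 0.82). Dtl stood at 81.4 in deep cells against 161 in shallow cells (0.51, 0.38 to 0.66). These genes are linked to S phase, while most of both scored lists lay between the limits. Gm42418, a noncoding gene annotated within ribosomal RNA sequence, stood at 3486 CPM in the deep cells and 7042 in the shallow ones. Over all members it ran from 8.57 to 437 UMIs per 10000 (median 43.6) with a rank correlation of -0.56 with depth. The 6 markers had a median log2 ratio of -0.02 between deep and shallow cells.

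Genes with the most variation between members beyond counting error were globins, sex-linked genes and genes of rapid response. Over 4854 genes with a mean of at least 0.5 UMI per 20000, the 20 highest included Hbb-bs, Jun, Hbb-bt, Xist, Car1, H1f0, 1700097N02Rik, C2cd4a, Hba-a1, Eif2s3y, Tgm2, Gm26917, Slc38a9, Gemin8, Mrap, Ier2, Gm15915, Mcur1 and Gdf3. Jun, an immediate early transcription factor, had an excess squared coefficient of variation of 2.42 (1.44 to 2.06 over 3 alternative settings), with 108 of 155 cells at 0 and 56.2% of its UMIs in the top 10% of cells. Car1, a carbonic anhydrase of erythroid progenitors, had 1.70 (1.35 to 1.56) and a rank of 20 in PE-high and 9 in CS CFUE. C2cd4a ran from 0 to 8 UMIs and was at 0 in 78 cells, with 1.38 (0.97 to 1.55), and its rank correlation with stage was 0.04. Of the 20 genes, 12 stayed among the 20 highest with a second thinning and 8 at 10000 UMIs, so the lower end of the order is not firm; Mcur1 had 0.801, and -0.11 with the second thinning. In CS CFUE 7 of the 20 were also among its 20 highest and in PE-high 1, while 12 lay within the 100 highest in each.

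Xist, the noncoding RNA of the inactive X chromosome, split the members. Of 161, 60 held 5 or more Xist UMIs (7 to 62, median 22) and fewer than 2 UMIs of the 4 Y-linked genes Ddx3y, Eif2s3y, Kdm5d and Uty. Another 91 held 2 or more Y-linked UMIs and fewer than 5 of Xist, 10 held neither and 0 held both. A count of 0 was given a limit of 3 cells of 161 (1.86%), and the exact interval for 0 of 161 cells runs up to 2.27%. In CS CFUE 4 cells held both. Between the 60 Xist cells and the 91 Y cells, 9 of 3279 genes (0.274%) lay past 1.5-fold. Xist and Eif2s3y set the groups, so their places among the 9 were fixed by the split. The 7 higher in Xist cells were Xist, Tmsb4x, Kdm5c and Eif2s3x on the X chromosome, Sdf2l1 and Pmm2 on chromosome 16, and Gm47283. The gene annotation used gave no chromosome for Gm47283. Kdm5c stood at 61.1 CPM in Xist cells and 37.1 in Y cells (ratio 1.65, 1.28 to 2.11), Eif2s3x at 137 in Xist cells against 90.9 in Y cells (1.51, 1.29 to 1.77) and Tmsb4x at 117 in Xist cells against 51.1 in Y cells (2.30, 1.89 to 2.79). The 2 lower were Eif2s3y on the Y chromosome and Chmp1a. The member led by B cell genes was 1 of the 60 Xist cells and held 101 of their 265 Tmsb4x UMIs. Without it, Tmsb4x stood at 73.2 CPM in Xist cells against 51.1 in Y cells (ratio 1.43, 1.15 to 1.78), under the limit, and the other 8 genes stayed past it.

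**Figure D5:**
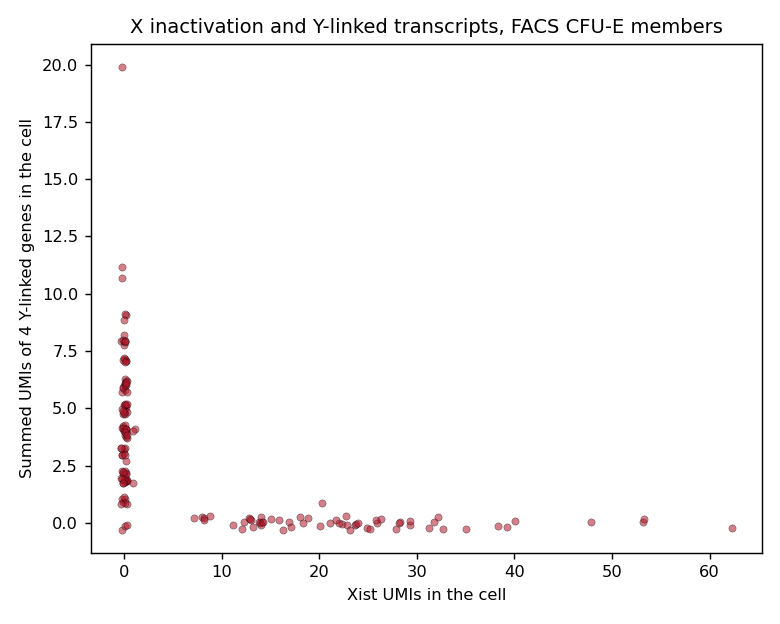
Xist UMIs (x axis) and summed UMIs of 4 Y-linked genes (y axis) in each of 161 FACS CFU-E members, with small random offsets so that points do not cover each other. Cells lie along 1 axis or the other: 60 along the Xist axis, 91 along the Y axis, 0 high on both.

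Against the other pools, FACS CFU-E stood closest to PE-high. Of 3290 genes, 32 (0.973%) lay past 1.5-fold, 8 higher in FACS CFU-E (0.243%) and 24 lower (0.729%). C2cd4a stood at 56.7 CPM in FACS CFU-E, against 27.8 in PE-high (ratio 2.04, 1.72 to 2.41), and Mrap at 98.8 in FACS CFU-E against 60.7 in PE-high (1.63, 1.45 to 1.83). The others higher were Hbb-bs, Hba-a1, Clk1, Redrum and the small nucleolar RNA host genes Snhg12 and Snhg5. Higher globin in FACS CFU-E rested on the limit: with all cells kept, the log2 ratios were -1.92 for Hbb-bs and -1.04 for Hba-a1. Lower were the myeloid granule genes Prtn3 (2.49 CPM in FACS CFU-E against 87.1 in PE-high) and Mpo (3.66 in FACS CFU-E against 91.4 in PE-high), with Vim, Plac8, Coro1a, Apoe, Cmtm7, Tmsb4x, Arhgdib and Cyba. PE-high held 2744 granulocyte list UMIs, up to 941 in a cell. In PE-high 21 cells and in FACS CFU-E 1 cell held 5 or more UMIs of the granulocyte, monocyte or lymphoid lists. Without these cells, 19 genes lay past the limit, 5 higher and 14 lower. Mpo and Prtn3 are in the granulocyte list, so leaving out these cells lowered their PE-high levels by construction. Mpo and Prtn3 were then at log2 ratios of -0.55 and -0.46, Plac8 at 0.32 and Vim at -3.45. Myb, a factor of immature progenitors, kept -0.73 and Ifngr1 -0.76. The Plac8 value rests on few UMIs: the FACS CFU-E cell left out held 13 of them, and the other 160 members held 8. With all cells under the globin limit kept, the early list had 3 of 8 genes lower (Myb, Vim and Plac8) and 0 higher. Of 13 heme genes 0 lay past 1.5-fold (median 0.31), likewise 0 of 39 S phase, 0 of 38 G2/M and 0 of 16 membrane and skeleton genes.

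Against FACS BFU-E, 648 of 3477 genes (18.6%) lay past 1.5-fold, 318 higher in FACS CFU-E (9.15%) and 330 lower (9.49%). Without cells that held 5 or more UMIs of the myeloid and lymphoid lists (1 FACS CFU-E and 88 FACS BFU-E cells), 460 did, 240 higher and 220 lower. The list counts and levels that follow keep these cells. Of 13 heme genes 1 was lower (Hmox2, of heme breakdown) and 11 were higher. Among the higher were Alad, the second enzyme of the path, at 576 CPM in FACS CFU-E against 228 in FACS BFU-E, and Cpox at 780 in FACS CFU-E against 299 in FACS BFU-E. Of 17 membrane and skeleton genes 2 were lower (Add3 and Tpm3) and 11 were higher, among them Sptb, beta spectrin (80.7 CPM in FACS CFU-E against 4.34 in FACS BFU-E). Of 23 factors, 18 were compared; 6 were higher, with E2f4 at 310 CPM in FACS CFU-E against 147 in FACS BFU-E and Gfi1b at 132 in FACS CFU-E against 65.6 in FACS BFU-E, and 5 lower, with Myb at 109 in FACS CFU-E against 371 in FACS BFU-E. Ccne1 (234 CPM in FACS CFU-E against 88.3 in FACS BFU-E) led 6 of 24 unscored cell cycle genes that were higher. Zinc and metallothionein genes were higher in 4 of 4, with the zinc and manganese transporter Slc30a10 at 53.2 CPM in FACS CFU-E against 5.56 in FACS BFU-E. In erythropoietin signalling, Epor and Podxl, a sialomucin gene induced by erythropoietin, were higher and 5 of 8 lower, with Kit at 43.4 CPM in FACS CFU-E against 97.1 in FACS BFU-E.

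Against CS CFUE, 367 of 3210 genes (11.4%) lay past 1.5-fold, 223 higher in FACS CFU-E (6.95%) and 144 lower (4.49%). The median over all genes was a log2 ratio of 0.23, and with a scaling that sets it to 0, 277 genes lay past the limit, 29 higher and 248 lower. The pools lie in different libraries, and library and pool cannot be told apart. Lower in FACS CFU-E were the hepatocyte genes Alb (0.665 CPM in FACS CFU-E against 54.9 in CS CFUE) and Afp (0.665 in FACS CFU-E against 60.9 in CS CFUE) and short ribosomal protein genes such as Rps29 (816 in FACS CFU-E against 3430 in CS CFUE). A single CS CFUE cell held 569 of the 1313 hepatocyte list UMIs of that pool, 3 of its cells held 5 or more, and its median cell held 1. Higher in FACS CFU-E were AY036118, Lars2 and Gm42418 (4951 in FACS CFU-E against 1504 in CS CFUE). Mt1 and Mt2, the metallothioneins, were lower (979 in FACS CFU-E against 2171 in CS CFUE and 411 CPM in FACS CFU-E against 849 in CS CFUE). C2cd4a was higher here too, at 56.7 CPM in FACS CFU-E against 12.5 in CS CFUE (log2 ratio 2.18, and 1.95 with the other scaling), as was Podxl at 51.1 in FACS CFU-E against 21.7 in CS CFUE (1.23 and 1.00) and Ung, the uracil glycosylase of DNA repair, at 77.7 in FACS CFU-E against 25.9 in CS CFUE (1.58 and 1.35). Kit (43.4 CPM in FACS CFU-E against 72.9 in CS CFUE) and Myb (109 in FACS CFU-E against 169 in CS CFUE) were lower. Of 37 S phase genes 7 were higher and 0 lower, and of 39 G2/M genes 0 lay past the limit. These counts are for total UMIs and are not given with the other scaling. The list medians were 0.37 for S phase and -0.07 for G2/M, against 0.23 over all genes.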

How the data were processed

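The submitters' processing notes name Cell Ranger 4.0.0, Scanpy and the build mm10. The authors deposited natural log values for both libraries in 1 table. As the values show, each is ln(1 + UMIs per 10000), and with the log undone every cell sums to 10000. The authors also deposited the pool name of each cell and 2 corrected principal component coordinates, a score whose correction no source used here explains. Whole UMI counts were recovered by dividing by the smallest nonzero value of each cell, and 100% of 16419767 nonzero values came out whole within 0.02. Cells of hashed pools shared 1 barcode ending, and the other ending was taken as the second library.

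UMIs were summed per pool and scaled to CPM. The 95% intervals are exact: conditional binomial for ratios, Poisson for levels and Clopper-Pearson for shares of cells. A count of 0 was set to 3 counts of the pool, 0.499 CPM in FACS CFU-E, and no gene named needed it. No doublet caller was run. Cells were thinned at random to 20000 UMIs for indices, phases and variation (scanpy 1.11.5, numpy 2.4.6, scipy 1.17.1). The comparison, thinning and variation steps were tested on simulated data. Named genes are the 6 markers, the 4 adult globins, the 10 highest and 10 lowest ratios of each pool and stage comparison, up to 4 members of each list by ratio, the 20 most variable genes and the 3 closest to each marker. Genes named for phase, depth and sex-linked groups, and the cell led by B cell genes, were chosen after their values were seen. The members and lists were chosen with earlier results of these data known. A few genes covered by the rules for named genes are not reported here.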

Additional observations from a re-analysis of the deposited data

How the results depend on the processing

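Counts of genes past 1.5-fold moved with the level filter. With 20 CPM in place of 50, they were 1373 against FACS BFU-E, 109 against PE-high and 671 against CS CFUE, and with 100 CPM 316, 12 and 210. Without the cells marked by myeloid or lymphoid lists, an alternative chosen after seeing the data, 19 lay past the limit against PE-high. Between late-end and early-end cells the count was 390 at 10000 UMIs, 85 with the cells split into 2 groups in place of 3 and, chosen after seeing the data, 123 with all UMIs of the same cells. A split by the first principal component gave 205 genes, 95 of them among the 236. The S share was 26.7% at 10000 UMIs and 25.8% with a second thinning, and the G2M share 73.3 and 74.2%. Of the 20 most variable genes, 8 stayed at 10000 UMIs and 12 with a second thinning. Among named genes past the limit and the 20 most variable genes, the signs that turned were those of Hba-a1 (-1.04) and Hbb-bs (-1.92) against PE-high with no globin limit, Plac8 against PE-high without the marked cells (0.32) and the excess variation of Mcur1 with a second thinning (-0.11). The Plac8 ratio without the marked cells rested on 8 UMIs in FACS CFU-E. The 6 markers did not lie past the limit against PE-high, so a turned sign of theirs there would not be listed. The second thinning, the cells left out and the ratio with all UMIs were chosen after the data were seen. The cause of these moves was not tested, apart from the filters and thinning, which change how many genes and UMIs enter. No paired analysis was possible because each pool is 1 sample with no replicate numbers. With 1 UMI per 20000 equal to 50 CPM, genes near the filter are read from few UMIs.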
